A study of Homo sapiens with 6 samples.

Results

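The genes described here encode the subunits and regulators of the proteasome, taken as every array probe whose gene symbol is PSM followed by a letter from A to G and a number. The rule found 77 probes for 48 gene symbols, out of 47231 probes and 31334 symbols on the array, and 45 of the 48 symbols had a probe above background and were tested. PSMC3IP, a recombination factor, shares only the start of the name and was left out. RNA came from U2OS cells, a human osteosarcoma line, with a control shRNA (shCtrl, also labelled parental) or a stable TUSC4 knockdown (shTUSC4). There were 3 samples in each group and 1 Illumina array per sample. TUSC4, now named NPRL2, is a subunit of GATOR1, which restrains the growth kinase mTORC1. The sources used here do not say whether the knockdown cells were a clone or a pool, or how many shRNA sequences were used. The study's title concerns the stability of BRCA1 protein through ubiquitination. The proteasome is the machine that degrades ubiquitinated proteins, and only its transcripts were analysed here.

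The proteasome is built from a barrel-shaped core of alpha and beta rings, in which the beta subunits carry the protease sites, and a regulatory cap. The cap has a base of ATPases that unfold substrates and a lid that removes their ubiquitin. Separate activators can take the place of the cap, dedicated chaperones assemble the core and the base, and cells exposed to interferon exchange the catalytic beta subunits for inducible ones. When proteasome activity falls short, the transcription factor NFE2L1 is known to raise many of these genes together.

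The 6 arrays each had 20378 to 21485 probes above an estimated background, and precision is limited by there being 3 per group. Their positions on the chip followed the groups, so chip position and group cannot be told apart, and no label says that samples came from separate cultures, so the p-values measure only the spread between these samples. The mesenchymal marker VIM had a mean signal of 11823 in the control samples. Of 8 mesenchymal markers 6 were above background, COL1A2 and FN1 being the exceptions, against 3 of 5 epithelial, 1 of 5 haematopoietic and 0 of 3 endothelial markers. Some of those counted were dim. The mesenchymal ALPL had mean signals of 133 in the controls and 124 in the knockdown, and the haematopoietic CD14 had 132 and 126. RUNX2 had 188 and 125, with 2 of the 3 knockdown arrays above background. Of the epithelial 3, KRT8 and KRT18 were lower in the knockdown, with log2 fold changes of -0.69 and -0.31, and of the mesenchymal ones COL1A1 and RUNX2 were lower, by -0.96 and -0.68. The summed epithelial signal was 1607 to 1869 in the controls and 1126 to 1232 in the knockdown, and the mesenchymal sum was 17068 to 18080 and 15126 to 17596. Their part in the proteasome results was not tested.

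The knockdown was visible in the targeted gene. TUSC4 had signals of 1105, 943 and 977 in the control samples and 366, 345 and 481 in the knockdown samples. All 3 knockdown values lay below all control values, and after normalization TUSC4 differed by -1.18 ± 0.10 on the log2 scale (SE of the difference, adjusted p = 8.77e-07 by limma).

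With quantile normalization proteasome transcripts were called in both directions. Of the 45 genes tested, 3 were higher and 6 lower in the knockdown at an adjusted p under 0.05 (limma, Benjamini-Hochberg over all 15300 genes). These 9 genes were 20.0% of the members, against 27.0% of all genes tested. The higher ones were 6.67% of members against 13.3% of all genes, and the lower ones 13.3% of members against 13.7%, so neither share stood above the background. The median log2 fold change (TUSC4 shRNA over control shRNA) was -0.011 for the members and 0.0013 for all genes, and the median size of change was 0.15 and 0.17. The groups did not overlap for 9 members on the higher side (20.0% of all genes) and 10 on the lower side (20.5% of all genes), which is 42.2% of members against 40.5% of all genes. The split depended on the scaling: median scaling and unnormalized values each gave 1 member higher and 9 lower, with members' medians of -0.19 and -0.23. The split over all genes shifted likewise, to 619 higher and 3457 lower with a median of -0.12, and to 384 higher and 3514 lower with a median of -0.16. PSMA2 alone changed more than 2-fold. For the 36 members that did not pass, the log2 fold changes lay between -0.32 and 0.27. The 95% confidence interval of the fold change stayed inside ±0.5 for 34 of them, the exceptions being PSMD10, which reached -0.57, and PSMC4, which reached 0.52. The number of members called depended on single arrays, falling to 5 without control replicate 3 and reaching 13 without TUSC4 replicate 3. In these fits 20.5% and 26.7% of all genes were called. The lower calls of members fell from 6 to 2 without control replicate 2 or control replicate 3, and to 3 without TUSC4 replicate 1 or TUSC4 replicate 2. The lower share of all genes fell too, from 13.7% to 11.6%, 10.4%, 12% and 11.5% in the same order. The higher calls became 5 without control replicate 2, where 10.4% of all genes were higher.

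**Figure D1:**
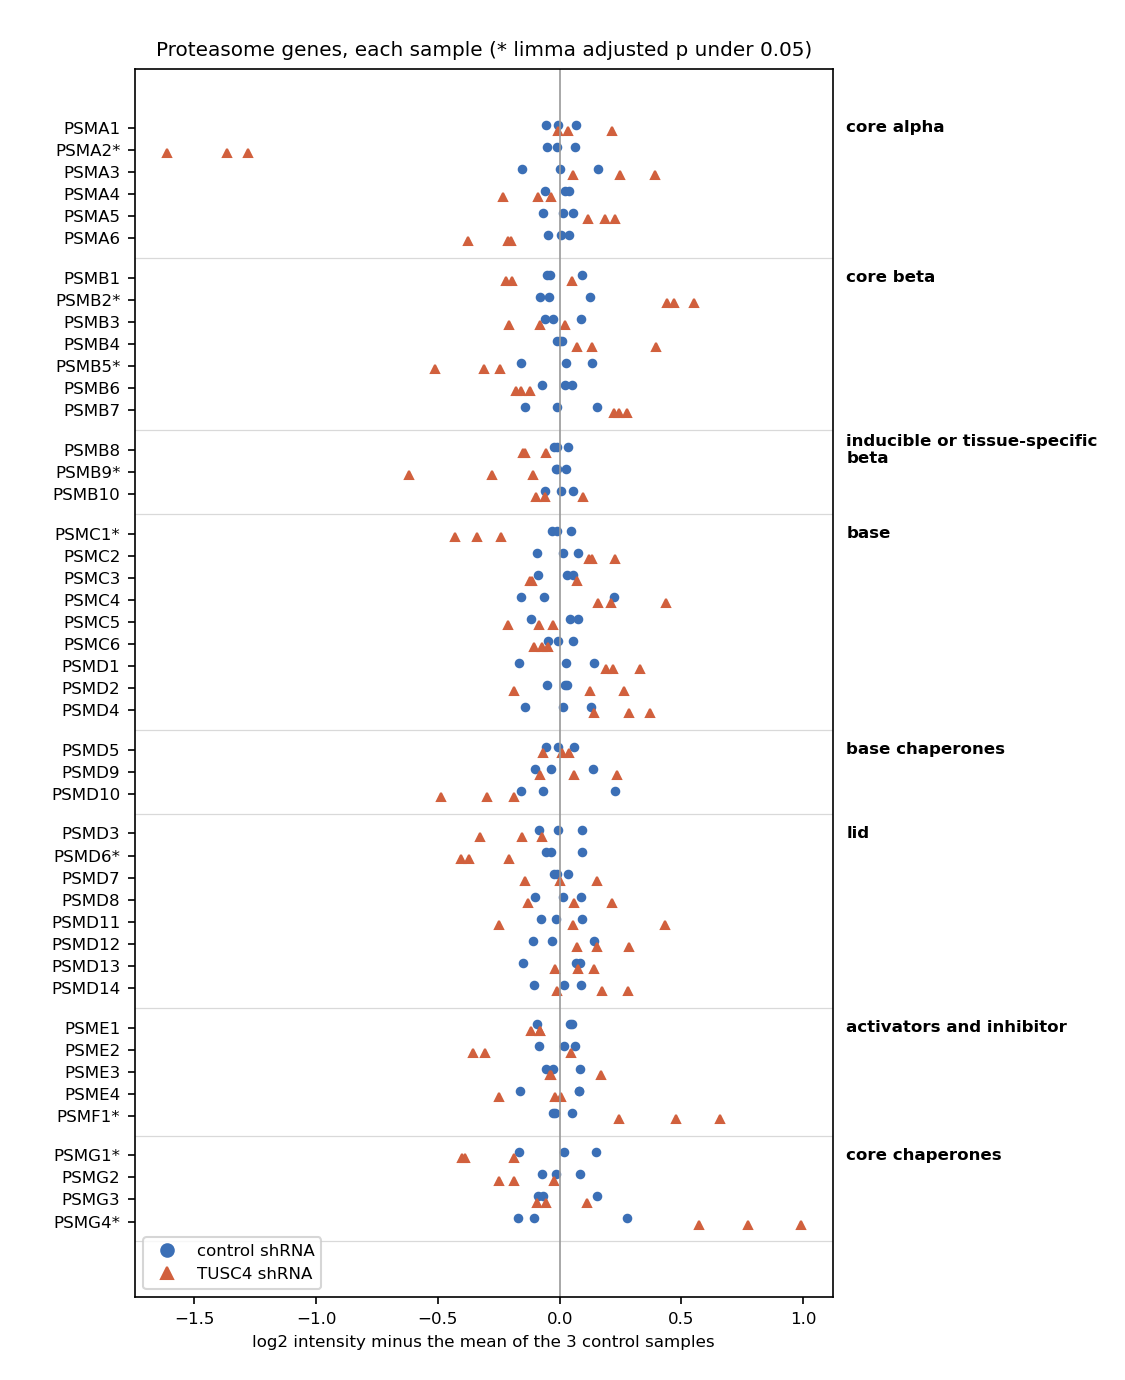
Each row is 1 of the 45 genes tested, ordered by class. The x axis gives the log2 intensity after normalization minus the mean of the 3 control samples, with circles for control samples and triangles for TUSC4 shRNA samples, and a star after the symbol marks an adjusted p under 0.05. Most triangles lie among or next to the circles, PSMA2 lies far to the left with a log2 fold change of -1.42, and PSMG4 lies furthest to the right with 0.78.

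In the alpha ring, which forms the gate of the core, 1 of the 6 genes tested was lower and none was higher. PSMA2, a subunit of that ring, had signals of 674, 592 and 558 in the control samples and 223, 186 and 254 in the knockdown samples. All knockdown values were well below all control values, with the highest knockdown value less than the lowest control value by more than the spread of either group. PSMA2 changed by -1.42 ± 0.11 on the log2 scale (SE of the difference, adjusted p = 2.71e-07 by limma), or to 37.3% of the control level, a value that includes the offset added in background correction. In these bulk samples fewer expressing cells and less RNA per cell cannot be told apart. PSMA2 was measured by a single probe, and it was called in all 15 alternative fits, with log2 fold changes between -1.68 and -1.16. The 50 measured genes nearest to PSMA2 on its chromosome were lower too, with a median log2 fold change of -0.34, 25 of them lower and 4 higher past the threshold. Relative to that median PSMA2 was at -1.08.

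The other 5 alpha genes did not pass by their brightest probes. PSMA6 had signals of 6321, 5331 and 5495 in the controls and 4256, 3662 and 5428 in the knockdown. One knockdown value fell within the control range before normalization, and none did after it. The log2 fold change of PSMA6 was -0.26 ± 0.10 (limma adjusted p = 0.0533), and its other kept probe gave -0.17. PSMA3 had 0.23 by its brightest probe and 0.23 by the other, PSMA5 had 0.18, PSMA1 0.08 and PSMA4 -0.12, and none of these passed by its brightest probe. The other kept probe of PSMA1 gave 0.29 and passed when every probe was tested (limma adjusted p = 0.0405), and that of PSMA4 gave 0.14 and did not. The single probe of PSMA7 was above background on 2 of the 6 arrays, with signals of 112 to 139, and PSMA8, a testis form of an alpha subunit, was above background on none, with 93.4 to 110. PSMA7 encodes a constitutive core subunit, and a dim probe says only that this probe gave no usable signal.

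Among the 7 constitutive beta genes 1 rose, 1 fell and 5 did not pass. PSMB2 encodes a beta subunit without a protease site of its own. Its signals were 2332, 2210 and 1952 in the controls and 2558, 2278 and 3028 in the knockdown. These overlapped before normalization, and after it every knockdown value was above every control value. PSMB2 differed on the log2 scale by 0.49 ± 0.10 (limma adjusted p = 0.00159). Median scaling ended the call (0.32, limma adjusted p = 0.0669), as did leaving out normalization (0.28, limma adjusted p = 0.153), within adjusted p of 0.000953 to 0.153 in the alternative fits. The neighbours of PSMB2 were also higher, with a median of 0.15.

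Of the 3 catalytic beta genes 1 was lower and the others did not pass. PSMB5, which carries the chymotrypsin-like site that proteasome inhibitors bind best, had signals of 2911, 2669 and 2243 in the controls and 1484, 1646 and 2177 in the knockdown. Every knockdown value was below every control value, although TUSC4 replicate 3 came close to control replicate 3. The log2 fold change of PSMB5 was -0.36 ± 0.11 (limma adjusted p = 0.0225). The call was lost with an offset of 16 and without control replicate 1, control replicate 2 or TUSC4 replicate 1, with adjusted p from 0.00992 to 0.101 over the alternative fits, and relative to its neighbours, whose median was -0.18, PSMB5 was at -0.18. PSMB6, with the caspase-like site, had signals of 6005, 4942 and 5200 against 4241, 3952 and 5204. Its log2 fold change was -0.15 ± 0.09 (limma adjusted p = 0.250), with a 95% interval of -0.35 to 0.04. PSMB7, with the trypsin-like site, had signals of 3888, 4166 and 3725 against 3851, 3687 and 4967. At 0.25 ± 0.10 (limma adjusted p = 0.0812) it lay on the other side of 0 from PSMB5 and PSMB6. PSMB7 passed in 3 of 15 alternative fits, 1 of them without control replicate 2 (0.33, limma adjusted p = 0.0418), within adjusted p of 0.0415 to 0.736. PSMB4 was at 0.20, PSMB3 at -0.09 and PSMB1 at -0.12, and none of these passed.

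The inducible beta genes, which interferon raises and which trim peptides for MHC class I, were not higher in the knockdown. PSMB8, the counterpart of PSMB5, had signals of 540, 468 and 466 in the controls and 366, 345 and 436 in the knockdown. All knockdown values were lower, but the log2 fold change after normalization was -0.12 ± 0.09 (limma adjusted p = 0.388). PSMB8 passed with median scaling (-0.36, limma adjusted p = 0.0346) and on unnormalized values (-0.40, limma adjusted p = 0.0383). Its other 3 kept probes gave -0.26, -0.10 and 0.04.

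PSMB9, the counterpart of PSMB6, was dim, with signals of 180, 161 and 162 in the controls and 116, 137 and 144 in the knockdown, and 2 of the 3 knockdown arrays were above background. The log2 fold change of PSMB9 was -0.34 ± 0.12 (limma adjusted p = 0.0461). It was called in 5 of 14 alternative fits, with adjusted p from 0.0154 to 0.224, and leaving out any control array or TUSC4 replicate 1 ended the call. Its other kept probe gave -0.12 (limma adjusted p = 0.514 over all probes). PSMB10, the counterpart of PSMB7, had signals of 2493, 2175 and 2047 against 1742, 1851 and 2040. Its log2 fold change was -0.02 ± 0.10 (limma adjusted p = 0.910), with a 95% interval of -0.23 to 0.19. PSMB11, the thymus form, was above background on no array.

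In the base of the cap, 1 of 9 genes was lower and none was higher. PSMC1, an ATPase subunit, had signals of 4215, 3670 and 3819 in the controls and 2740, 2333 and 3239 in the knockdown. Every knockdown value was below every control value. PSMC1 differed on the log2 scale by -0.34 ± 0.10 (limma adjusted p = 0.0156). Its other kept probe gave -0.26 (limma adjusted p = 0.0984 over all probes), and the call was lost without control replicate 3 (limma adjusted p = 0.0665) or TUSC4 replicate 2 (limma adjusted p = 0.0615), within a range of 0.00415 to 0.0665 over the alternative fits. Unlike most called members, PSMC1 went against its chromosomal neighbours, whose median was 0.11, with 8 higher and 1 lower past the threshold.

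The other ATPase genes were split in sign and none passed by its brightest probe. PSMC4 had 0.27, PSMC2 0.16, PSMC3 -0.05, PSMC6 -0.07 and PSMC5 -0.11. The other 2 kept probes of PSMC4 gave 0.36 and 0.38, and both passed when every probe was tested (limma adjusted p = 0.0357 and 0.0173). PSMD1 and PSMD2, the large scaffold subunits of the base, had 0.25 and 0.07. PSMD4, a ubiquitin receptor between base and lid, had signals of 2189, 2050 and 2247 in the controls and 2251, 2050 and 2351 in the knockdown. The raw values of PSMD4 overlapped, and the log2 fold change was 0.27 ± 0.10 (limma adjusted p = 0.0715), with 0.12 and 0.23 for its other kept probes. PSMD4 passed in 3 of 15 alternative fits, 1 of them without TUSC4 replicate 3 (0.33, limma adjusted p = 0.0334), within adjusted p of 0.0334 to 0.862.

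Of the chaperones that assemble the base, none passed by its brightest probe. PSMD10 (gankyrin), which is also an oncoprotein, came closest. Its signals were 1122, 1207 and 1016 in the controls and 741, 620 and 921 in the knockdown, and every knockdown value was the lower. PSMD10 differed on the log2 scale by -0.32 ± 0.12 (limma adjusted p = 0.0508), and the other kept probes gave -0.44, which passed when every probe was tested (limma adjusted p = 0.0181), and -0.26, which did not. PSMD10 passed in 7 of 15 alternative fits, with adjusted p from 0.00713 to 0.229 over all of them. It passed with median scaling (-0.55), on unnormalized values (-0.59) and with its probes averaged (-0.34). It also passed without control replicate 1 (-0.40) or TUSC4 replicate 3 (-0.39). PSMD5 had -0.01 ± 0.09 and PSMD9 0.07 ± 0.11, with 95% intervals of -0.21 to 0.19 and -0.16 to 0.30.

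In the lid 1 of 8 genes was lower and none was higher. PSMD6, a structural lid subunit, had signals of 5104, 4946 and 4554 in the controls and 3525, 3063 and 3861 in the knockdown. All knockdown values were below all control values. The log2 fold change of PSMD6 was -0.33 ± 0.10 (limma adjusted p = 0.0210), and its other kept probe gave -0.22 (limma adjusted p = 0.138 over all probes). The call was lost with an offset of 16 and without control replicate 2, control replicate 3 or TUSC4 replicate 2, with adjusted p from 0.00860 to 0.0840. PSMD6 lay among genes that were lower, with a median of -0.18 and 19 of the 50 neighbours lower past the threshold, and relative to them it was at -0.14.

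PSMD14, the deubiquitinase of the lid, had signals of 3446, 3255 and 3387 in the controls and 3154, 2695 and 4285 in the knockdown. The knockdown values spread to both sides of the control values, and the log2 fold change was 0.15 ± 0.10 (limma adjusted p = 0.328), with a 95% interval of -0.07 to 0.37. The other lid genes ranged from -0.18 for PSMD3 to 0.17 for PSMD12. The kept probes of PSMD12 had opposite signs, 0.17 and -0.11, and neither passed.

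**Figure D2:**
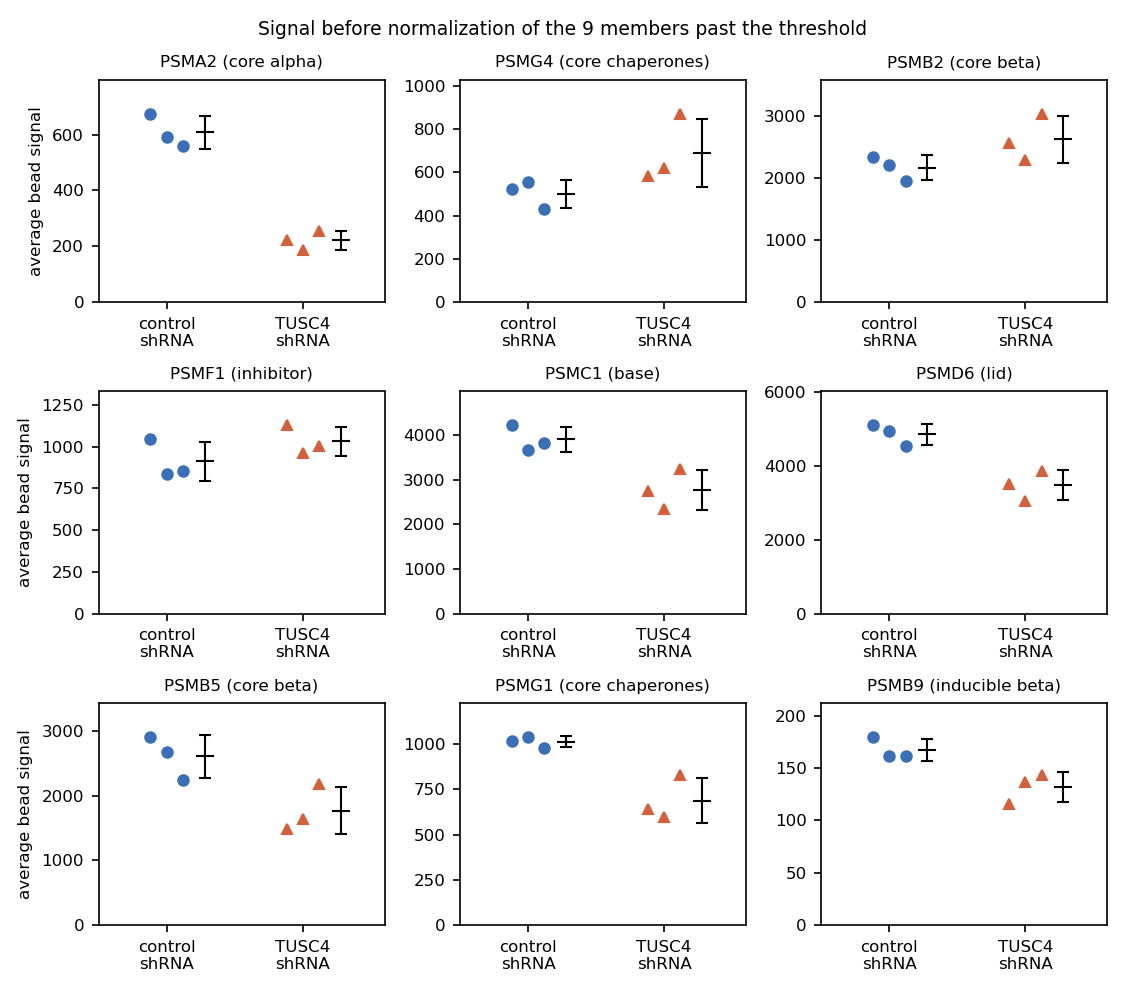
Each panel shows 1 of the 9 genes past the threshold. Circles and triangles give the average bead signal of each sample before normalization, on an axis from 0, and the bars beside them give mean ± SD (n = 3). PSMA2 falls from between 558 and 674 to between 186 and 254, whereas the groups of PSMB2 and PSMF1 overlap before normalization.

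Among the activators and the inhibitor, 1 of 5 genes changed. PSMF1, which encodes an inhibitor of the core, had signals of 1047, 835 and 851 in the controls and 1127, 960 and 1004 in the knockdown. Control replicate 1 lay above 2 of the knockdown samples before normalization, and after it the groups did not overlap. PSMF1 differed on the log2 scale by 0.46 ± 0.11 (limma adjusted p = 0.00533). It did not pass with median scaling (0.24, limma adjusted p = 0.171) or on unnormalized values (0.20, limma adjusted p = 0.316), within adjusted p of 0.000787 to 0.316 in the alternative fits. Its chromosomal neighbours were higher as well, with a median of 0.31 and 28 of 50 higher past the threshold, and relative to them PSMF1 was at 0.15.

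PSME1 and PSME2 encode the interferon-responsive activator and lie next to each other, so they share most neighbours. PSME1 differed by -0.09 ± 0.09 on the log2 scale (limma adjusted p = 0.518). PSME2 had signals of 2654, 2469 and 2451 in the controls and 1680, 1536 and 2620 in the knockdown. TUSC4 replicate 3 lay among the controls while the other knockdown samples were lower. PSME2 differed on the log2 scale by -0.20 ± 0.11 (limma adjusted p = 0.204), and it became -0.33 (limma adjusted p = 0.0224) without TUSC4 replicate 3. PSME3, the nuclear activator, had 0.03 ± 0.10, and PSME4, a large nuclear activator that acts on histones, had -0.09 ± 0.11. Their 95% intervals were -0.18 to 0.24 and -0.32 to 0.14.

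The chaperones that assemble the alpha ring went both ways. PSMG4 had signals of 520, 554 and 429 in the controls and 581, 621 and 870 in the knockdown. Every knockdown value was above every control value, and TUSC4 replicate 3 was the highest. PSMG4 differed on the log2 scale by 0.78 ± 0.13 (limma adjusted p = 0.000394), or 1.72-fold. It was called in all 15 alternative fits, with log2 fold changes from 0.50 to 0.92, and its other probe was not well above background. The neighbours of PSMG4 had a median of 0.18, and relative to them it was at 0.60.

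PSMG1 had signals of 1018, 1039 and 978 in the controls and 639, 596 and 828 in the knockdown. All knockdown values were lower. PSMG1 differed on the log2 scale by -0.33 ± 0.11 (limma adjusted p = 0.0345), and its other kept probe gave -0.31 (limma adjusted p = 0.0858 over all probes). The call ended with an offset of 16, and also without either of control replicates 2 and 3 or either of TUSC4 replicates 1 and 2, with adjusted p from 0.00388 to 0.145. PSMG2, the partner of PSMG1, had -0.15 ± 0.10 (limma adjusted p = 0.280), and PSMG3, the partner of PSMG4, had -0.01 ± 0.10 (limma adjusted p = 0.954). 

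Where a gene had more than 1 kept probe, the probes served as repeated measurements of the same RNA. Of the 16 such genes 12 had all kept probes on the same side of 0, and PSMA4, PSMB8, PSMC6 and PSMD12 did not. When all 66 kept member probes were tested, 6 were higher and 7 lower, against 12.2% and 12.8% of all kept probes with a symbol.

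**Figure D3:**
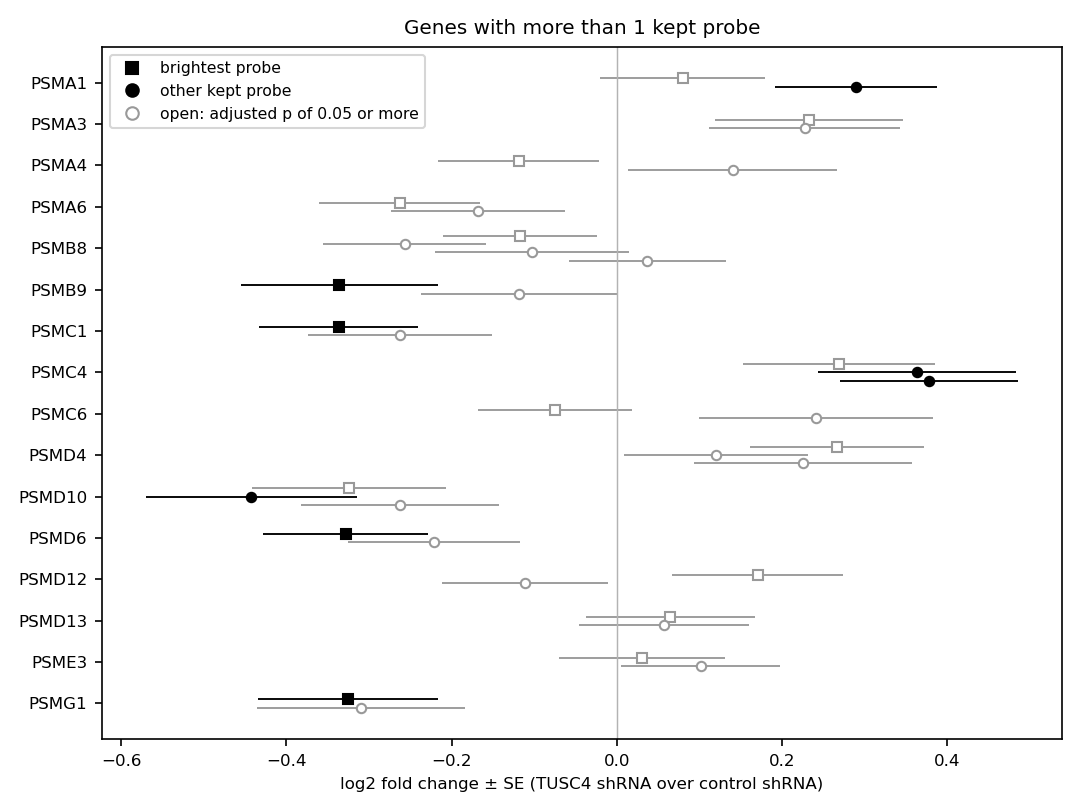
Log2 fold change ± SE of every kept probe for the 16 genes with more than 1, squares for the brightest probe and circles for the others, filled where the adjusted p over all probes was under 0.05. The 3 probes of PSMD10 all lie below 0 and the 3 of PSMC4 all lie above 0, while the probes of PSMD12 fall on either side.

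The members lie on many chromosomes, and the log2 fold change of each was also set beside the median of its 50 nearest measured genes. Over the 45 members Pearson's r was 0.69 and Spearman's rho 0.62, and without PSMA2 they were 0.63 and 0.60. Over the 12278 genes with a position the same r was 0.33 and rho 0.34. Members had the sign of their neighbours in 31 of 45 cases (68.9%), against 62.5% of all genes with a position. These are descriptions: all values come from the same 6 arrays, and members that lie close together share neighbours. Of the 9 called members, PSMC1 and PSMB9 had the opposite sign to their neighbours and the other 7 (77.8%) had the same sign. Among all called genes with a position 72.3% had the sign of their neighbours. The median of the members was -0.027 after each neighbour median was subtracted. How far the neighbouring genes bear on the member calls was not tested.

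**Figure D4:**
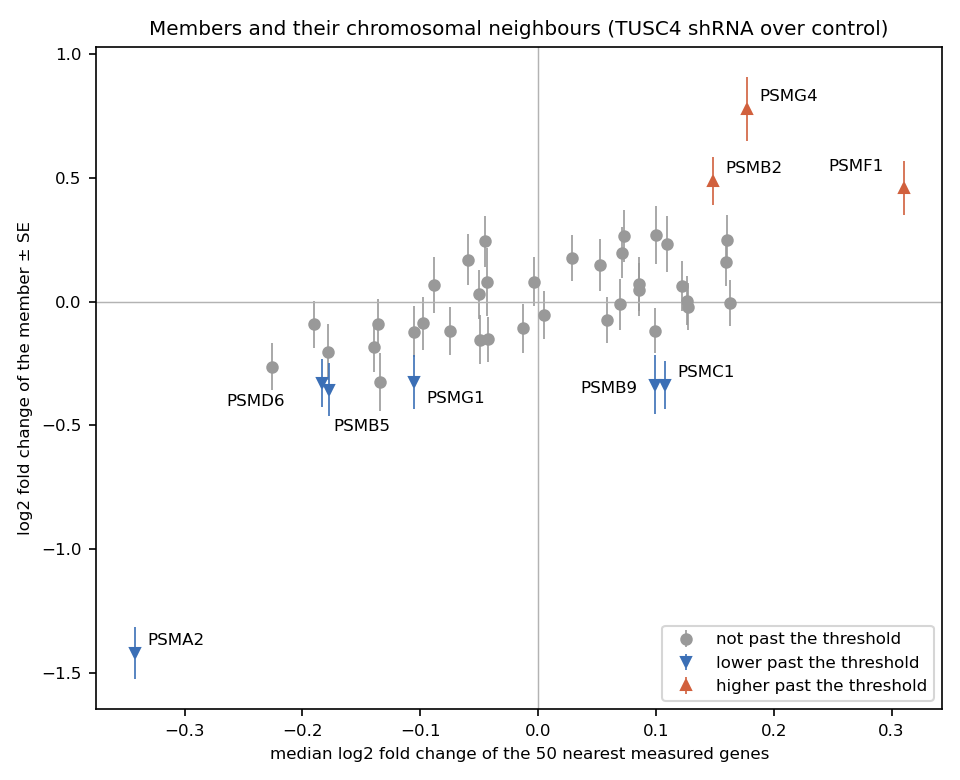
Each point is a tested proteasome gene, with the median log2 fold change of its 50 nearest measured genes on the x axis and its own log2 fold change ± SE on the y axis. Points rise from lower left, where PSMA2 lies at -0.34 and -1.42, to upper right, where PSMF1 and PSMG4 lie, and PSMC1 and PSMB9 fall below the others on the right.

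The promoters of the members were searched for TGANNNNGC, a pattern of 9 letters of which 5 are fixed. It is looser than the antioxidant response element, the kind of site to which NFE2L1 and NFE2L2 bind. The windows ran from 250 bases before to 50 after the gene start, as RefSeq gives them for GRCh38.p14, and 42 of the 48 members had one, all but PSMA7, PSMB1, PSMB6, PSMB7, PSMD4 and PSMG3. On either strand TGANNNNGC was found in 26 of these 42 windows (61.9%), in 41.8% of all 35116 promoters of that length and in 42.9% of the 8209 tested genes with a window. The narrower TGACNNNGC, which lies within the first motif and was added after the data were seen, was found in 13 of the 42 (31.0%), in 13.3% of all promoters and in 15.4% of the tested genes. Of the 40 tested members with a window, 24 (60.0%) held the first motif and 13 (32.5%) the narrower one. Of the 9 called members 4 held the first motif, and of the 31 members that were tested and not called 20 did. A match describes the letters and does not show a site of binding.

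The promoters shown are those of the members with the largest fall and rise and those of the called members with a match to the narrower motif. Capitals mark TGANNNNGC on either strand, and neither PSMA2 nor PSMG4 has a match in its window. The window of PSMA2 is chr7:42932125-42932424 on the minus strand, of PSMG4 chr6:3258697-3258996 on the plus strand, of PSMG1 chr21:39183402-39183701 on the minus strand and of PSMB9 chr6:32853942-32854241 on the plus strand.
PSMA2: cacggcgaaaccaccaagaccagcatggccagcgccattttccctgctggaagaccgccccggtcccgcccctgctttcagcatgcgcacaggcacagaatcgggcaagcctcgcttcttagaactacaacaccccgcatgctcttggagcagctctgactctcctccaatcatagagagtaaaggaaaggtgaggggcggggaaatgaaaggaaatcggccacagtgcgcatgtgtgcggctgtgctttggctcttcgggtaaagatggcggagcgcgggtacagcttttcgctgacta
PSMG4: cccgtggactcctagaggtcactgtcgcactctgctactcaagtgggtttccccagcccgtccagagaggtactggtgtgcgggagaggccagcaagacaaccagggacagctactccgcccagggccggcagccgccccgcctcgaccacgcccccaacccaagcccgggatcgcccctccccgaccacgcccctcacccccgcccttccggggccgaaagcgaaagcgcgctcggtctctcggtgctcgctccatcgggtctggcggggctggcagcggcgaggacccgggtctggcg
PSMG1: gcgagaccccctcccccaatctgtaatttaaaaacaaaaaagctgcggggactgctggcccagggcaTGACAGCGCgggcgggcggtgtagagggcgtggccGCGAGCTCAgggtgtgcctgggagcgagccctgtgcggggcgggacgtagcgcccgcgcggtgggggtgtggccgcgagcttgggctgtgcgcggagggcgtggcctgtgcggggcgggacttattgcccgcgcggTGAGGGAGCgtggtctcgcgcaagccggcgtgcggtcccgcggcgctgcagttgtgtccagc
PSMB9: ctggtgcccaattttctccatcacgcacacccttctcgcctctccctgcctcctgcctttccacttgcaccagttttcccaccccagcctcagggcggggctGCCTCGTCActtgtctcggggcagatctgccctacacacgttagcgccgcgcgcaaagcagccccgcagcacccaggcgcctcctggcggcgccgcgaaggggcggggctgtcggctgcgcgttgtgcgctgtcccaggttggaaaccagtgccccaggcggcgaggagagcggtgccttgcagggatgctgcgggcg
PSMG1 has 3 matches and PSMB9 has 1, and both genes were lower in the knockdown, by -0.33 and -0.34 on the log2 scale. Of the other called members PSMB2, which was higher, has 1 match to TGANNNNGC, and PSMB5, which was lower, has 2. Whether matches bear on the calls was not tested.

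Of 33 further genes of the pathway, listed for their known roles, 31 were tested, 7 were higher and 2 lower, against 13.3% and 13.7% of all genes. The count of 9 fell to 5 without control replicate 1 or control replicate 3, where 19.8% and 20.5% of all genes were called. Among the 19 assembly or associated factors 6 were higher and 1 lower, beside the same 13.3% and 13.7% of all genes. The lower one was UBE3C, a ubiquitin ligase that binds the proteasome, at -0.42 ± 0.14 (limma adjusted p = 0.0312), with overlapping groups. ADRM1, a ubiquitin receptor of the base, had signals of 3082, 2803 and 2521 in the controls and 3074, 3291 and 3854 in the knockdown. The samples overlapped slightly before normalization, and the log2 fold change was 0.47 ± 0.10 (limma adjusted p = 0.00206). SHFM1 (SEM1), a small lid subunit, had 0.33 ± 0.10 (limma adjusted p = 0.0191), but its other kept probe gave 0.03. KIAA0368 (ECPAS), an adaptor that binds core and cap, had 0.42 ± 0.12 (limma adjusted p = 0.0177). ZFAND2A, a stress-induced protein that binds the proteasome, had 0.62 ± 0.10 (limma adjusted p = 0.000338). The median of the 50 nearest measured genes was -0.13 for UBE3C, 0.02 for ADRM1, 0.11 for KIAA0368 and 0.06 for ZFAND2A.

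Among the regulators NFE2L1 did not pass, with signals of 421, 377 and 351 in the controls and 304, 361 and 365 in the knockdown, and a difference of 0.11 ± 0.11 on the log2 scale (limma adjusted p = 0.521, 95% interval -0.13 to 0.35). NFE2L2, which can also activate proteasome genes, was at 0.33 ± 0.09 (limma adjusted p = 0.0127). NPLOC4, a cofactor of the segregase VCP that hands ubiquitinated proteins to the proteasome, was lower at -0.44 ± 0.10 (limma adjusted p = 0.00451). UBB, a polyubiquitin gene, was at -0.27 (limma adjusted p = 0.0584). Under median scaling ADRM1, KIAA0368, NFE2L2 and SHFM1 no longer passed (0.32, 0.18, 0.09 and 0.26), nor did they on unnormalized values (0.29, 0.14, 0.06 and 0.23), where ZFAND2A also missed the threshold (0.34). KIAA0368 was also lost without control replicate 2, TUSC4 replicate 1 or TUSC4 replicate 2, and SHFM1 with an offset of 16, with its probes averaged, or without control replicate 1, control replicate 3 or TUSC4 replicate 2.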

How the data were processed

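Each sample's RNA was biotin-labelled and measured on its own Illumina array, per the labels' protocols. The authors deposited 1 linear intensity per probe and sample, the mean bead signal before normalization between arrays, per the file headers. They also deposited log2 values of the same arrays with 1 common distribution (median 6.89). Their steps from signal to log2 are not given in the sources used here. BeadStudio is named in the submitters' processing notes.

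The intensity was corrected with limma's normexp (offset 50), quantile-normalized and put on the log2 scale. The offset shrinks the changes of dim probes. Detection p-values were not used here, and a probe counted as above background at an estimated one-sided normal p under 0.05, from the mode (density bandwidth 0.05) and lower side of each array's log2 signal. A probe above it on 3 or more of the 6 arrays was kept (20657, of which 881 had no symbol), and each gene was represented by its brightest kept probe. limma 3.58.1 (R 4.3.3) compared the groups on all 6 arrays over 15300 genes, two-sided, with Benjamini-Hochberg adjustment. SE is limma's moderated standard error, and the deposited log2 values served as an alternative. The procedure was tested on simulated data, in which 200 of 20657 probes, all bright, were changed. Changes of 0.5 on the log2 scale were recovered in 59% of cases and changes of 1 in 100%, with 7 false calls. All simulated probes had 1 common spread and few were changed, whereas 27.0% of genes were called in the data. These recovery rates therefore need not hold for the data.

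Named are all called members, the catalytic pairs, PSMD4, PSMD14, the activators, the inhibitor and the chaperones, TUSC4, NFE2L1 and up to 6 called related genes. The members and lists were chosen with earlier results of these data known. Neighbours were found with a RefSeq gene table (GRCh38.p14), which placed 12284 of the genes by symbol or unique synonym. Alternatives changed 1 choice at a time: background correction, offset, normalization, filter, probe choice, a replicate block and each array left out.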

Additional observations from a re-analysis of the deposited data

How the results depend on the processing

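PSMA2, PSMG4, NPLOC4 and TUSC4 kept their direction and their call in all 15 alternative fits of a gene. Against 9 members called (3 higher, 6 lower), an offset of 16 gave 5 called with 2 lower. Leaving out 1 array gave 5 to 13 called, 3 to 5 higher and 2 to 9 lower. Of all genes tested 24.0% were called with an offset of 16 (12.5% lower), and 19.8% to 26.7% with 1 array left out. With 1 array left out the higher share of all genes was 9.69% to 13.4%. The lower share was 10.2% to 13.3%, with 10.4% without control replicate 3 and 13.3% without TUSC4 replicate 3. The higher count was 5 without background correction, 6 with the authors' deposited log2 values and 6 when every kept probe was tested. The higher shares of all genes or probes in these fits were 13.0%, 12.3% and 12.2%. The higher count of members was 1 with median scaling and 1 without normalization, with 9 lower in each. These scalings moved the median of all genes to -0.12 and -0.16 and that of the members to -0.19 and -0.23. Averaging a gene's probes gave a members' median of 0.0046. The log2 fold changes of PSMB10, PSMD14, PSME3, PSMG3, PSMD5, PSMD9 and NFE2L1, none of them called, changed sign under at least 1 alternative. Over all genes median scaling gave 619 higher and 3457 lower and no normalization 384 and 3514, against 2037 and 2089. Leaving out 1 array moved the members' median between -0.039 and -0.0019, the genes called between 3037 and 4084, and TUSC4 between -1.27 and -1.14. The related genes called were 5 with an offset of 16 and 5 to 8 with 1 array left out, against 9. The narrower promoter motif was found in 13 windows, against 26. The samples share only a number: same-numbered samples' deviations correlated at 0.099, 0.053 and -0.11. With the replicate block 9 members (3 higher, 6 lower), 8 related genes and 4087 genes were called. The cause of these changes was not tested. With 3 arrays per group, changes of about 0.3 on the log2 scale lay at the threshold.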
